A study of Mus musculus with 4 samples.

Results

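The genes described here are 71 nucleoporins, transport receptors, exon junction and THO factors, translation initiation factors and their partners. They are the genes of the KEGG pathway RNA transport that were counted as carrying a differential N6-methyladenosine (m6A) peak between MIN6 cells with and without transfected GR. KEGG's row for the pathway held 89 input gene IDs that mapped to 79 distinct Entrez genes. The 7 genes also present in the spliceosome row (Acin1, Alyref2, Ddx39b, Magoh, Ncbp1, Rbm8a and Thoc3) and Eif4ebp1 were left out, which leaves 71 of the 2074 distinct Entrez genes of the KEGG table.

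MIN6 is a mouse insulinoma line, labelled as of C57BL/6 strain and used as a model of the pancreatic beta cell. Cells in both arms were transfected by lipofection, 10 µg of plasmid per dish, after growth in medium with 25 mM glucose, in the control arm with a control vector and in the other with a vector for GR, read here as the glucocorticoid receptor, and RNA was taken 24 hours later. Each arm gave 1 input library and 1 library immunoprecipitated with an antibody to m6A, 4 libraries in all, so nothing below has a replicate check. No age, clone or number of dishes is given in the labels, and the promoter of the GR vector is not given in the sources used here.

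The files hold no value per library, and for these 71 genes they give neither the direction, the size nor the position of an m6A change. Sequencing depth is unknown. What they give is whether a gene's ID is in the table of genes related to differential peaks, here called the gene table, and on how many lines. The files do not say what each line represents. The membership of the 71 genes in the pathway was read from these same tables, so their presence is a description and supports nothing by itself. The gene table records differential peaks and not expression, so the cell type cannot be checked from it. Of 8 beta cell markers it lists 6 (Ins1, Pdx1, Mafa, Nkx6-1, Slc2a2 and Slc30a8) and not Ins2 or Iapp, and of 8 markers of other cells it lists Gcg alone.

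Messenger RNA leaves the nucleus through the nuclear pore, a ring of nucleoporins with a scaffold anchored in the nuclear envelope and a channel lined by flexible repeats. The THO complex and the exon junction complex mark a spliced transcript for export by the receptor Nxf1-Nxt1, while exportins and importins that depend on the GTPase Ran carry other RNAs and proteins. In the cytoplasm eIF4E binds the cap, eIF2 brings the initiator tRNA, and eIF2B recharges eIF2. In beta cells, control of initiation through eIF2 is known for its part in matching protein synthesis to the load of insulin made in the endoplasmic reticulum. m6A itself is known to influence splicing, export, translation and decay of the transcripts that carry it.

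Of the 71 genes, 59 were in the gene table under their own Ensembl ID and 12 were not. The 12 were counted in the pathway only because another ID, in most cases a pseudogene, was mapped to the same Entrez gene. Of all 21900 protein-coding genes, 25.2% were in the gene table. Because the rule chose genes that were listed, the 59 cannot be read against that share.

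Most of the 59 genes had few lines. There were 36 on 1 line, 15 on 2, 6 on 3 (Eif2b1, Eif4g3, Kpnb1, Pnn, Pom121 and Rpp21), Eif4ebp3 on 5 and Eif5b on 7. The share on 2 lines or more was 39% (exact Clopper-Pearson 95% interval 26.5% to 52.6%, counting error only), and among all 5526 listed protein-coding genes it was 44.5% (43.2% to 45.8%). The median was 1 line in both sets. The interval of the 59 genes holds the share of all listed genes.

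**Figure D1:**
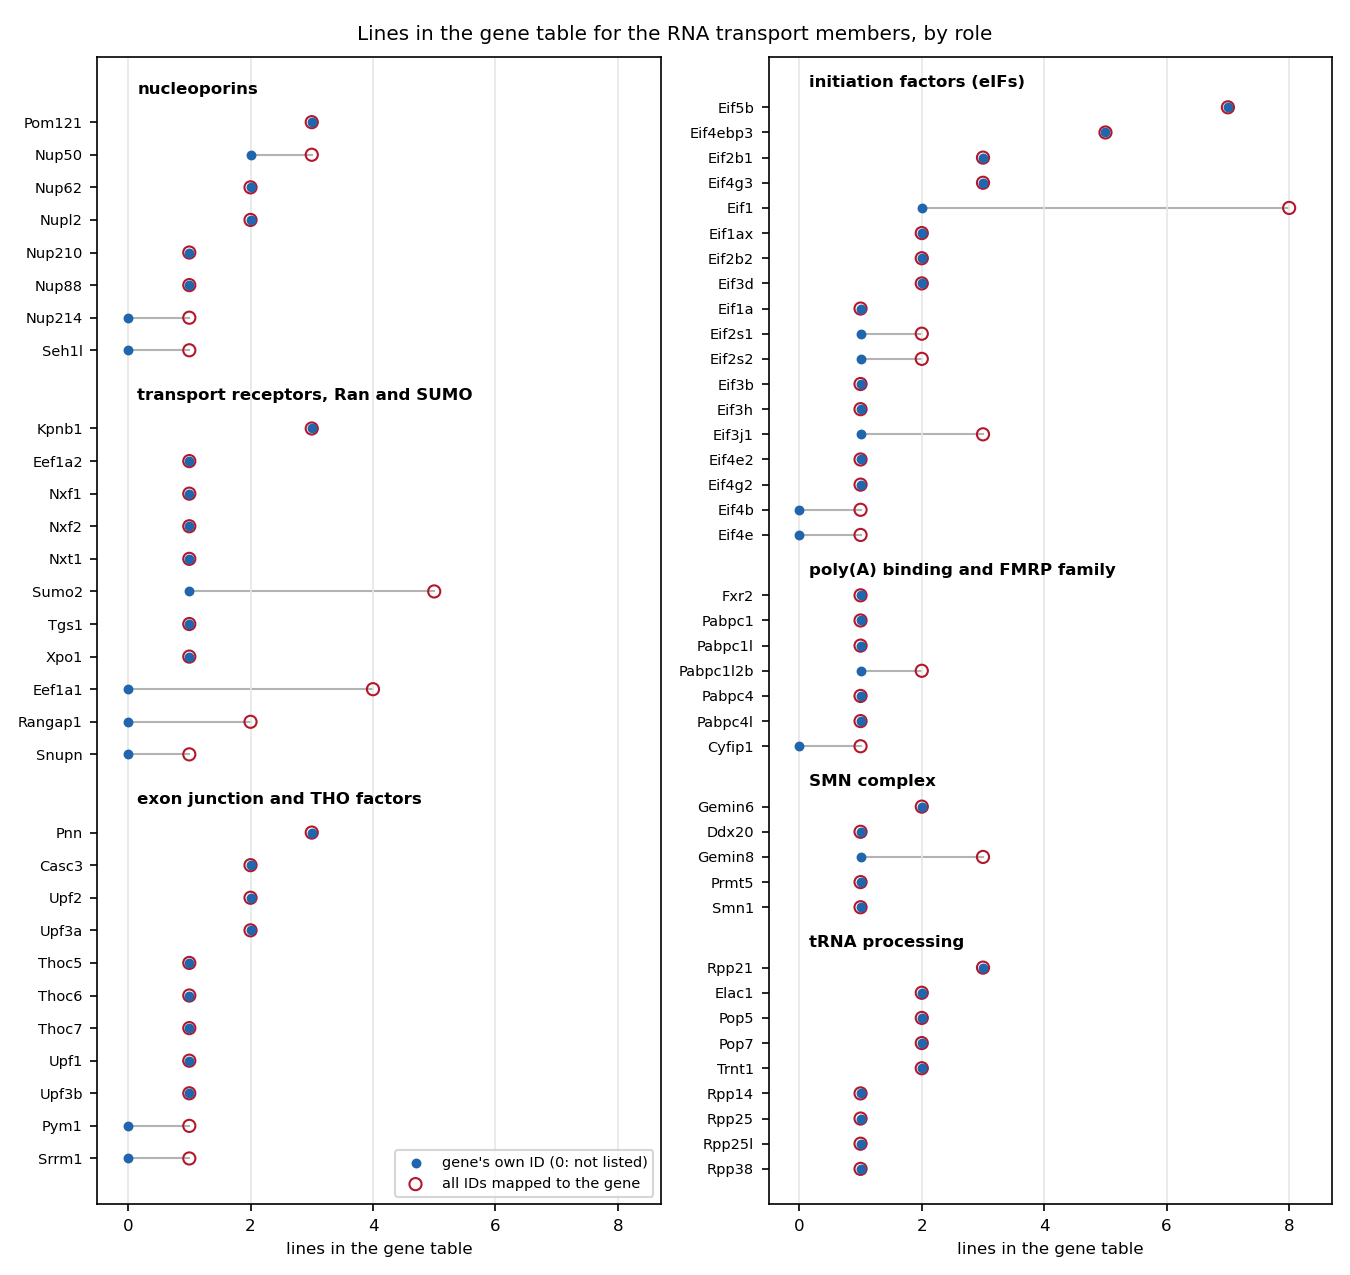
Lines in the gene table (x axis, number of lines) for the genes (y axis), grouped by role, with 2 of the 71 not shown; filled points count the gene's own ID and open circles all IDs mapped to the same Entrez gene. Eif5b leads by its own ID with 7 lines, Eif1 reaches 8 only with its other IDs, and genes not listed under their own ID have a filled point at 0.

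Of the 8 nucleoporins, 6 were listed under their own ID. Pom121, a membrane nucleoporin that anchors the pore in the envelope, had 3 lines, and Nup210, the other membrane nucleoporin among these 8, had 1. Nup62, which lines the central channel, had 2 lines. Nup50 of the nuclear basket also had 2, with 1 more on the pseudogene Gm13435. On the cytoplasmic side, Nupl2 had 2 lines and Nup88 had 1.

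Nup214, which docks the export machinery on the cytoplasmic side, was not in the gene table itself. Its pathway entry came from Gm13609, a long non-coding RNA gene of 1 line at bases 32016913 to 32017351 of chromosome 2 (mm10), inside the bounds of Nup214 (31974408 to 32053975). A microRNA gene inside Nup214, Mir7674, was listed on 3 lines. Seh1l, a subunit shared by the outer ring of the pore and a regulator of mTORC1, was counted through the pseudogene Gm15780 on chromosome 6 and had no line of its own.

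A microRNA gene inside a protein-coding gene shares its locus, and here the tables do not say which of the overlapping genes a peak lay in. There were 3 such genes among the 71: Mir7674 in Nup214, Mir7033 in Pom121 (3 lines for the microRNA gene and 3 for its host) and Mir6399 in Eif4g3 (1 line against 3). Which of the paired transcripts carried the signal was not tested. Their mature sequences (RefSeq, GRCm38.p6) are printed because these listed genes mark short, exact stretches inside 3 of the loci; the seed, bases 2 to 8, is in capitals.
mmu-miR-7674-5p (chr2:32050946-32050969, plus strand): uGAGGUGUgggcagcaugaggacu
mmu-miR-7674-3p (chr2:32050988-32051008, plus strand): uCCCAUUCucaccgcacccag
mmu-miR-7033-5p (chr5:135383783-135383805, minus strand): uCUCCAGGagucugaggggcagg
mmu-miR-7033-3p (chr5:135383730-135383750, minus strand): uGCCUCCAuucucuugggcag
mmu-miR-6399 (chr4:138163263-138163284, plus strand): uUGCAAUGaugguauucugagg
None of these 5 shares its seed with another. The letters ggac, the core of the sequence in which m6A is usually found, are in miR-7674-5p and in none of the other 4, and 7.13% of all 1738 mature sequences in the table hold them. A match of 4 letters is a description and not a mapped site.

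Among the 13 transport receptors, Ran and SUMO factors, 8 were listed under their own ID. Kpnb1, the importin beta that carries cargo into the nucleus, had 3 lines, while Xpo1, the main exportin for proteins and several RNA classes, had 1. The 3 genes of the messenger RNA export receptor in this group had 1 line each: Nxf1, its paralog Nxf2 and the small subunit Nxt1. The related Nxf3, Nxf7 and Nxt2 were not listed. Tgs1, which hypermethylates the cap of small nuclear RNAs, and Eef1a2, an elongation factor that carries aminoacyl-tRNA, had 1 line each.

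Other genes of this group had lines on other IDs. Eef1a1, the widely expressed sister of Eef1a2, was not listed, but its transcribed pseudogene Gm6548 on chromosome 17 had 4 lines. Rangap1, which switches Ran off at the pore, was counted through Gm7162 (2 lines). Snupn, the import adaptor for small nuclear ribonucleoproteins, was counted through Gm11653 (1 line). Sumo2 was listed itself on 1 line and had 4 more lines on Gm49325 and Gm13690.

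Exon junction and THO factors numbered 11, of which 9 were listed under their own ID. All 4 core factors of nonsense-mediated decay were present: Upf2 and Upf3a had 2 lines each, Upf1, the helicase, and Upf3b, the X-linked paralog of Upf3a, had 1 each. Pnn had 3 lines and Casc3, a core subunit of the exon junction complex, had 2. The THO subunits Thoc5, Thoc6 and Thoc7 had 1 line each. Srrm1 and Pym1, the factor that takes the exon junction complex off during translation, were counted through the pseudogenes Gm18722 and Gm12644 and had no line of their own.

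The initiation factors and the repressor Eif4ebp3 formed the largest group, 18 genes with 16 under their own ID. Eif5b, the GTPase that joins the ribosomal subunits, had 7 lines, the most by own ID of the 71 genes, over a gene of 57570 bp at bases 37998010 to 38055579 of chromosome 1. Eif1, which guards the choice of the start codon, had 2 lines of its own and 6 more on Gm7688 and Gm12391, 8 in all, the most when every ID is counted. Eif1ax had 2 lines and the closely related Eif1a had 1, and reads from 2 such similar genes may not be told apart.

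Of eIF2, the alpha subunit Eif2s1 and the beta subunit Eif2s2 had 1 line each, with 1 more for either on a pseudogene (Gm12734 and Gm9892). Of eIF2B, the exchange factor that recharges eIF2, Eif2b1 had 3 lines and Eif2b2 had 2. Of eIF3, the scaffold that holds the small ribosomal subunit, Eif3d had 2 lines, and Eif3b, Eif3h and Eif3j1 had 1. KEGG mapped Eif3j2, a protein-coding copy on another chromosome with 2 lines, to the Entrez gene of Eif3j1, so the pair counts as 1 gene.

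Among the eIF4 factors, the scaffold gene Eif4g3 had 3 lines and its relative Eif4g2 and the cap-binding Eif4e2 had 1 each. Eif4e, the cap-binding protein, and Eif4b, the partner of the eIF4A helicase, were counted only through Gm49765 and Gm15833, on 1 line each. Eif4ebp3, a repressor of eIF4E, had 5 lines, the second highest count by own ID.

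The poly(A)-binding proteins Pabpc1, Pabpc1l, Pabpc4 and Pabpc4l had 1 line each. Pabpc1l2b, a further gene of this family, was listed under the name Pabpc1l2b-ps, with 1 line, and the copy Pabpc1l2a-ps added 1. RefSeq classes it as protein-coding although the ID's name marks a pseudogene. Fxr2, a relative of the fragile X protein, had 1 line, and Cyfip1, a partner of that protein, was counted only through Gm44616 (1 line). Every gene of this group that was listed had the lowest possible count.

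Among the 71, 5 genes were grouped with the SMN complex, which builds the Sm ring on small nuclear RNAs, all under their own ID. Of a wider list for the SMN complex and Sm ring assembly, the same genes were listed, 5 of 12 (41.7%, 15.2% to 72.3%). Gemin2, Gemin4, Gemin5, Gemin7, Strap, Clns1a and Wdr77 were absent. Since the 5 were chosen for being listed, this share cannot be read against the 25.2% of all protein-coding genes. Gemin6 had 2 lines, and Smn1, Ddx20, Gemin8 and the arginine methyltransferase gene Prmt5 had 1. Gemin8 had 2 more lines on the pseudogene Gm6013. The 9 tRNA processing genes among the 71 were likewise all listed under their own ID. Of the subunits of RNase P and RNase MRP, Rpp21 had 3 lines, Pop5 and Pop7 had 2, and Rpp14, Rpp25, Rpp25l and Rpp38 had 1. Elac1, which cuts the 3' trailer of tRNA precursors, and Trnt1, which adds the CCA end, had 2 each.

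To see which parts of the pathway were missing, 21 role lists with 172 genes in all were matched to the gene table. These lists include genes the deposited pathway row does not name and leave out the members Eif1a, Pabpc1l2b, Rpp21 and Trnt1. In total 65 of 172 genes were listed by their own ID, 37.8% (30.5% to 45.5%), beside 25.2% of protein-coding genes. The latter share covers genes of every tissue, and how many of them MIN6 cells express is not given. The lists were written with earlier results of these data known, and most of their listed genes are members, which were chosen for being listed. The shares are therefore descriptions, and 37.8% cannot be read against 25.2%.

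The shares ran from 0 of 5 to 3 of 4. Of the 15 scaffold genes of the pore, in the Y complex and the inner ring, Sec13 (3 lines) alone was listed, 6.67% with an interval of 0.169% to 31.9% that holds 25.2%. Nup107, Nup133, Nup160, Nup98 and Ahctf1 of the Y complex were absent, as were Nup93, Nup188, Nup205, Nup155 and Nup35 of the inner ring. Over all 6 nucleoporin lists, 8 of 35 genes were listed (22.9%, 10.4% to 40.1%). That share is near the 25.2% of all protein-coding genes in number. However, 6 of these 8 are among the genes chosen for being listed, so it cannot be read against 25.2%.

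The exon junction and nonsense-mediated decay list had 8 of 15 genes (53.3%, 26.6% to 78.7%) and the tRNA end list 7 of 12 (58.3%, 27.7% to 84.8%). Of these, 6 of the 8 and all 7 are among the 71 genes, which were chosen for being listed, so neither share can be read against 25.2%. The first list includes Magoh (3 lines) and Acin1 (1 line), which are spliceosome genes and not among the 71. Absent from the first were Eif4a3, Magohb, Rbm8a, Rnps1, Sap18, Srrm1 and Pym1, and from the second Pop1, Pop4, Rpp30, Rpp40 and Elac2. Differences between lists were not tested, and the intervals of these 2 lists overlap that of the pore scaffold.

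Within the initiation factors, 16 of 40 genes were listed (40%, 24.9% to 56.7%). These 16 include Eif1ad and Eif3j2 but not Eif1a or Eif4ebp3, so they differ from the 16 described above. Most of them are members, chosen for being listed, so the share cannot be read against the 25.2% of all protein-coding genes. The eIF1, eIF1A and eIF5 list had 4 of 6 and the eIF4F list 3 of 11, where Eif4a1, Eif4a2, Eif4h, Eif4e, Eif4b and Eif4g1 were absent. Of 14 eIF3 genes 5 were listed, and Eif3a, Eif3c and Eif3e were among the absent. The gamma subunits of eIF2 (Eif2s3x and Eif2s3y) and 3 of 5 eIF2B subunits were absent too. Absence from the gene table does not mean that a transcript lacks a peak. Of 22 autophagy genes with peaks in another deposited table, 13 were not in the gene table. Whether the peaks of these 13 differed between the arms was not tested. None of the 71 genes was among those 22.

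**Figure D2:**
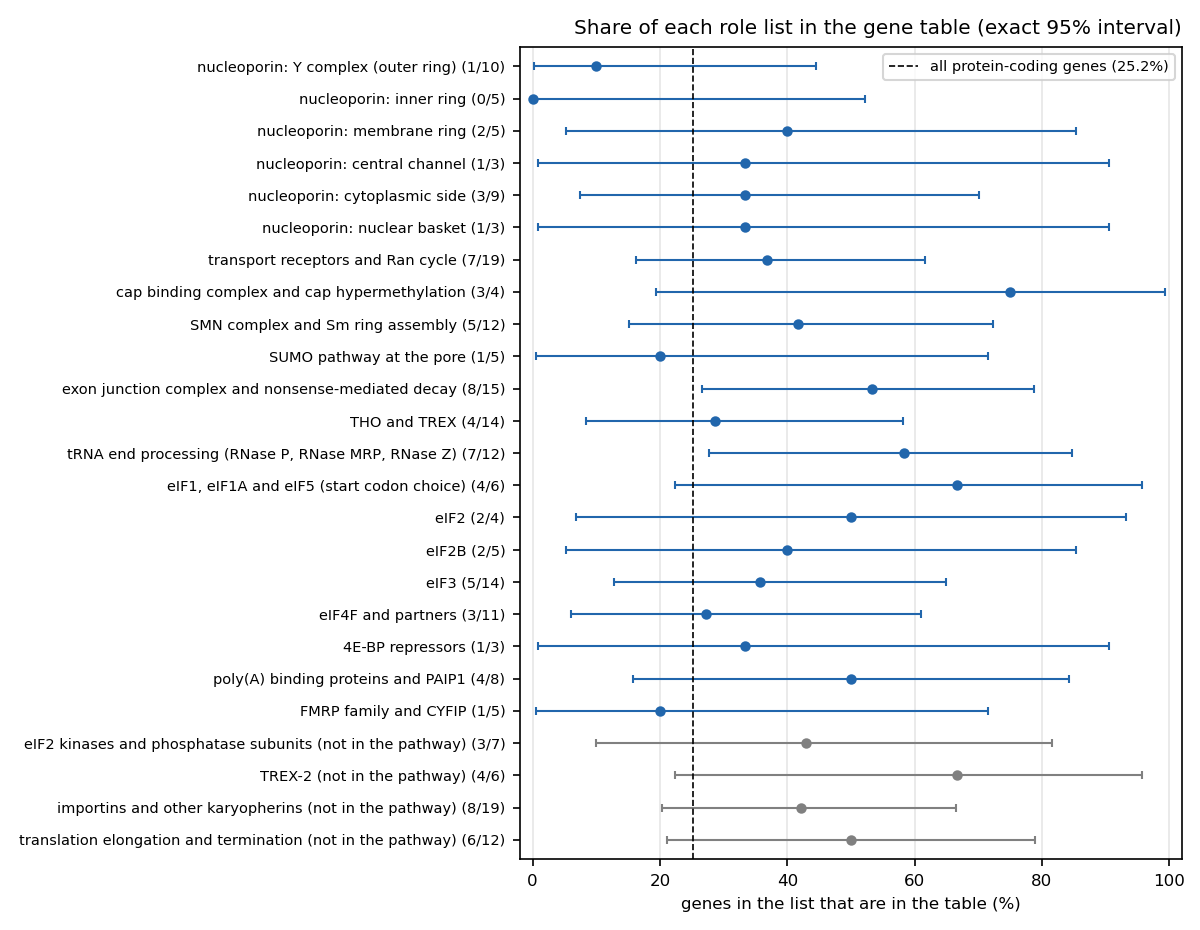
Share of each role list found in the gene table (x axis, percent; bars are exact 95% intervals; counts in brackets), with lists inside the pathway in blue and lists outside it in grey; the dashed line marks the 25.2% of all protein-coding genes. The intervals are wide, most of the listed genes in blue were chosen for being listed, and the inner ring of the pore (0 of 5) and the Y complex (1 of 10) have the lowest shares.

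Beside the 59 own IDs the 71 genes had 22 further IDs, of which 13 belonged to pseudogenes, 2 to transcribed pseudogenes, 1 to a long non-coding RNA gene, 1 to a protein-coding gene (Eif3j2) and 5 to models without a class in the reference. Of the 12 IDs that stand alone for a gene, 7 were of pseudogenes, 2 of transcribed pseudogenes, 1 of a long non-coding RNA gene and 2 had no class. Each of the 9 in the first 2 classes lay outside the bounds of its parent gene. A processed pseudogene can share long stretches of sequence with its parent, and whether the reads behind these lines came from the parent transcript was not tested.

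The pathway with its spliceosome genes and Eif4ebp1 had 79 genes, and 16 of them (20.3%) were counted through another ID only. In the authors' deposited table the pathway had 89 input IDs against 170 background genes, p = 9.84e-14 and an adjusted p of 2.85e-12. These 89 IDs stand for 79 genes, 46.5% of the background number, and for 63 own genes, 37.1% of it. Among the 51 pathways with at least 50 genes, the median of this last share was 31.3% and RNA transport ranked 13th from the top. The genes described here were taken from this row, so its p, shares and rank are descriptions and support nothing by themselves. For the same reason 37.1% cannot be read against the 25.2% of all protein-coding genes. The deposited p was given for 89 IDs, and what it would be for the 63 own genes was not tested. In the spliceosome 15 of 66 genes with a reference record (22.7%) had no own ID, in mRNA surveillance 9 of 48 (18.8%) and in RNA degradation 3 of 38 (7.89%). The median share of genes without an own ID over the 51 pathways was 12.7%, and RNA transport ranked 8th from the top. The highest was oxidative phosphorylation at 34.5%.

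**Figure D3:**
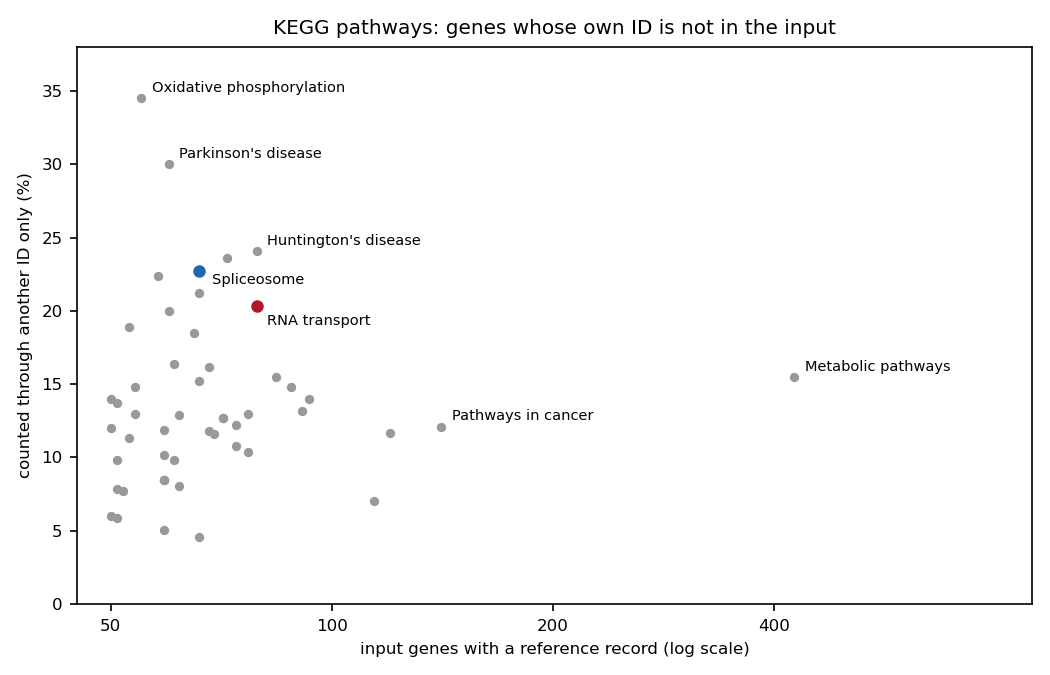
Share of a pathway's genes that entered only through another ID (y axis, percent) against its number of input genes with a reference record (x axis, log scale) for the 51 KEGG pathways with at least 50 genes; 1 point per pathway. RNA transport (red) lies at 20.3% and the spliceosome (blue) at 22.7%, both above the median of 12.7%.

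The Gene Ontology (GO) table counts genes with a peak per term and does not draw on KEGG. Its gene lists hold 5409 distinct IDs, 26.0% of the 20770 background genes. All of these IDs are in the gene table, so the terms are a second grouping of the same genes and not an independent measurement. The total of 10022 genes with a peak that the table states is larger, and it stands for 48.3% of the background. The over-representation p given for each of these terms by the authors' deposited table was 1, and the terms were chosen after their counts were seen.

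Nonsense-mediated decay had 23 of 36 genes (63.9%, 46.2% to 79.2%), the exon-exon junction complex 11 of 21 (52.4%) and the ribonuclease P complex 7 of 12 (58.3%). Among the 71 were 6 of the 11 junction genes and 5 of the 7 ribonuclease P genes. Of the 23 decay genes 6 were among the 71, namely the 4 Upf genes, Casc3 and Pabpc1. Beside them the term held the termination factors Etf1, Gspt1 and Gspt2, the decapping genes Dcp1a, Dcp1b and Dcp2, and Smg6 and Smg8. The outer ring of the pore had 1 of 11 (9.09%, 0.23% to 41.3%), the nuclear pore as a whole 19 of 70 (27.1%) and its structural constituents 4 of 27 (14.8%, 4.19% to 33.7%). Those 4 were Pom121, Nup62, Nup88 and Nutf2-ps1, the first 3 among the 71, as were 8 of the 19. Translation initiation factor activity had 22 of 68 (32.4%, 21.5% to 44.8%), 15 of the 22 being among the 71, and the cytosolic ribosome, for comparison, 37 of 131 (28.2%). The 71 genes were chosen for being listed, so shares of terms that hold any of them cannot be read against 26.0%.

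**Figure D4:**
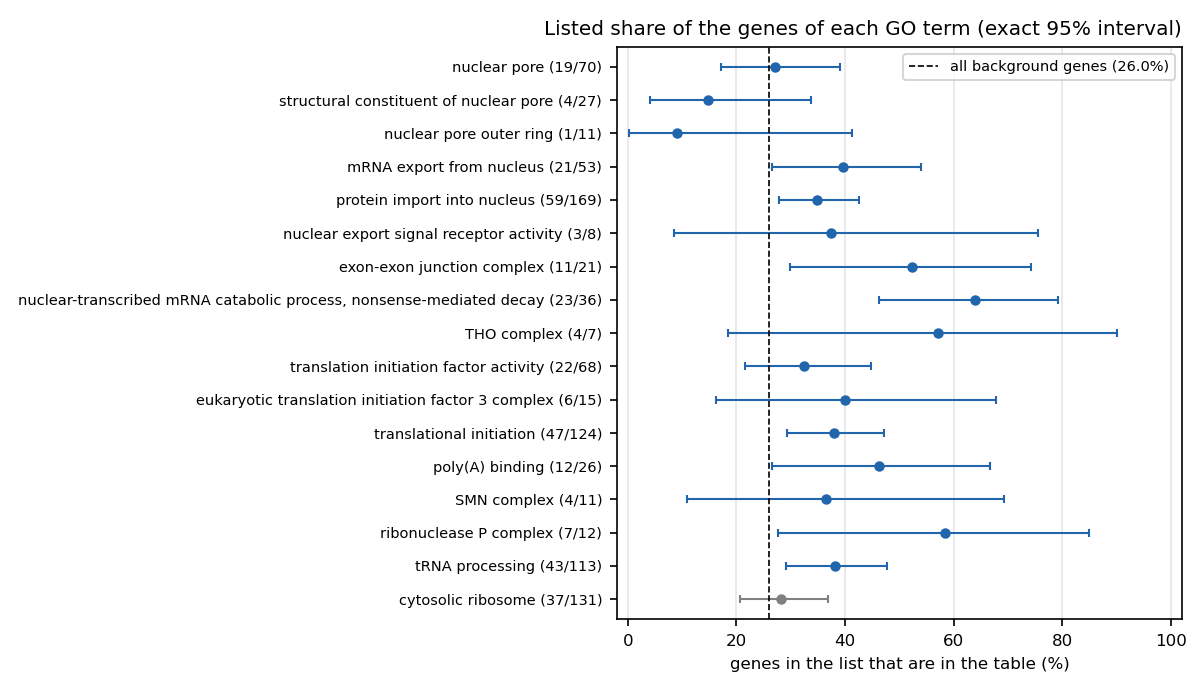
Share of the background genes of each GO term that were listed (x axis, percent; bars are exact 95% intervals; counts in brackets); the dashed line marks 26.0%, the share of all background genes, and the ribosome is in grey. Nonsense-mediated decay (63.9%) lies farthest to the right and the outer ring of the pore (1 of 11) farthest to the left.

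The 71 genes divided over other KEGG pathways by role. There were 35 in at least 1 other pathway and 36 in none. The mRNA surveillance pathway shared 16 of them, among them the 4 Upf genes, Casc3, Pnn and the 5 poly(A)-binding genes, and ribosome biogenesis shared 9, including Xpo1, Pop5 and Pop7. Eif2s1 occurred in the most other pathways, 7, followed by Eif4e and Eif4e2 with 6 and Nxf1, Nxf2 and Xpo1 with 4. Insulin signaling and HIF-1 signaling each shared Eif4e and Eif4e2. Of the 4 genes shared with mTOR signaling, Eif4e, Eif4b and Seh1l were counted through other IDs and Eif4e2 alone through its own.

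Several protein domains named in the gene table follow the roles. Of 58 listed members with domain names, 5 had an RNA recognition motif domain (Eif3b and 4 poly(A)-binding genes; 8.62%), against 1.53% of the 5419 listed protein-coding genes with names. An armadillo-type fold was named for Kpnb1, Xpo1, Upf2, Eif4g2 and Eif4g3 (8.62% against 2.1%), and a MIF4G-like domain for the last 3 of these. All 3 listed genes with an Alba-like domain were RNase P subunits of the pathway (Pop7, Rpp25 and Rpp25l), and 3 of 6 with an NTF2-like domain were Nxf1, Nxf2 and Nxt1. Such domains are part of what places a gene in the pathway. By contrast, the P-loop domain of nucleoside triphosphate hydrolases was named for 6.9% (Ddx20, Eef1a2, Eif5b and Upf1), near the 5.19% of listed genes.

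Gene length was compared because a longer gene offers more room for peaks. The 59 genes had a median length of 15749 bp, close to 16452 bp for all listed protein-coding genes. Spearman's rho between length and lines was -0.05 across the 59 genes, which are not independent replicates, and -0.09 across the 5526. Bounds that overlap another listed gene were found for 6 of the 59 (10.2%, 3.82% to 20.8%), against 12.9% of all listed protein-coding genes. Apart from Pom121 and Eif4g3, which host microRNA genes, these were Nup62 with Atf5 (571 shared bases, 2 and 4 lines), Upf1 with Gdf1 (100 bases, 1 and 6 lines), Tgs1 with Tmem68 (27 bases, 1 line each) and Casc3 with Gm12359 (282 bases, 2 and 1 lines). In such pairs a line could belong to either gene, since whether reads were assigned by strand is not given in the sources used here.

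Promoters were compared because the transfected factor acts on DNA; no peak or binding at these promoters is in the files. RefSeq windows (GRCm38.p6) from 250 bases before to 50 after a start were found for 57 of the 71 genes, 67 windows in all. Both strands were searched. The word AGAACA, which makes up each arm of the glucocorticoid response element, was in 6 windows (8.96%), against 12.9% of windows of listed protein-coding genes and 16.2% of all protein-coding windows. The full element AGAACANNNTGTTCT was in 0 of the 67 and in 2 of 21263. The GC box GGGCGG was in 46 of 67 windows (68.7%, against 61.4% of listed and 46.2% of all). The ETS word CCGGAAG was in 17.9% (against 17.5% and 11.6%), CACGTG in 4.48% (9.68% and 7.84%) and TATAAA in 5.97% (6.65% and 12.6%). The 67 windows include genes not listed under their own ID. In the 57 windows of genes listed under their own ID, AGAACA was in 8.77%, GGGCGG in 68.4% and CCGGAAG in 17.5%. There CACGTG was in 3.51% and TATAAA in 5.26%.

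The palindrome GCGCATGCGC, known as the site of the nuclear respiratory factor NRF1, was in 4 of the 67 windows (5.97%), of Nup50, Nup62, Upf1 and Srrm1, against 1.56% of listed and 1.33% of all windows. Srrm1 was not listed under its own ID, and in the windows of genes that were, the palindrome was in 3 of 57 (5.26%). The stretches of Nup50 and Upf1 are shown as examples of this word, which is in capitals, with the neighbouring bases in lower case. Nup50 holds it in 2 places, and the stretch of Upf1 begins at the edge of its window.
Nup50, distal (chr15:84923241-84923290, plus strand): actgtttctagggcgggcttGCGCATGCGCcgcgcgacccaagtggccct
Nup50, proximal (chr15:84923303-84923352, plus strand): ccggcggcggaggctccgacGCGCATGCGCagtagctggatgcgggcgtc
Upf1 (chr8:70353496-70353529, minus strand): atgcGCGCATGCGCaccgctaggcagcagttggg
The proximal copy ends 95 bases before the start of Nup50. A match says only that these letters are present. The counts are small, and no test was made.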

How the data were processed

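Input and m6A-IP libraries of MIN6 cells with control or GR vector were compared by the authors. Tools listed in the submitters' processing notes are HOMER 4.9.1 and BWA 0.7.12, with the build mm10; the peak caller and its thresholds are not given in the sources used here. The deposited KEGG and GO tables hold counts of genes per pathway or term, not reads. Their p-values were computed by the authors; per the file headers, those for KEGG are hypergeometric or Fisher p-values with Benjamini-Hochberg adjustment. The gene table, with 17052 lines and 9225 distinct IDs, has text columns only.

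Of those IDs, 9217 matched a table of gene names; coordinates and gene classes are from RefSeq GRCm38.p6, the assembly behind mm10. A gene counted as listed under its own ID when the ID's name was its RefSeq symbol or a synonym. Members, role lists, GO terms and motifs were chosen with earlier results of these data known. The rule for named genes was to name every member once in its role and to describe those with most lines, several IDs or no own ID; 2 members are counted but not reported here by name. No test between arms was made, since neither arm has a second culture. Intervals are exact Clopper-Pearson intervals at 95%. Alternatives were 2 lines or more, matching by deposited symbol, other IDs counted, every input ID counted, spliceosome genes kept and other denominators. Added after the data were seen were lists without spliceosome genes and lines without overlapping genes. Scripts were tested on simulated data. The software was SciPy 1.17.1 and NumPy 2.4.6 under Python 3.11.15, with Matplotlib 3.10.9 for plots.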

Additional observations from a re-analysis of the deposited data

How the results depend on the processing

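The number of genes, 71, was 81 with every input ID counted, 78 with spliceosome genes kept and 59 by own ID alone, all within 1.5 times. The 37.8% of the role lists in the gene table fell to 15.1% when 2 lines or more were asked for (26 genes in place of 65), beside 11.2% of all protein-coding genes by that rule, and was 47.1% when IDs mapped to the same Entrez gene were counted as well (81 genes). Both lie outside its interval, and both follow from how the settings are built. Most of the listed genes were chosen for being listed, so these shares cannot be read against that of all protein-coding genes. It was 37.8% by deposited symbol and 37.0% without spliceosome genes. The share of all protein-coding genes, 25.2%, was 22.5% over all named genes of the reference. The median of 1 line was 1 in each of the 3 other settings. No paired analysis was possible because each arm has 1 library of each kind and no result comes from a test. Depth is unknown, so what it limits cannot be stated.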

Other observations

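Related gene groups outside the pathway also had listed genes. Of TREX-2, which tethers active genes to the pore, 4 of 6 genes were listed: Mcm3ap and Cetn3 on 2 lines, Pcid2 and Eny2 on 1. Of importins and other karyopherins 8 of 19 (42.1%, 20.3% to 66.5%) were listed, among them Ipo9 on 3 lines and Ipo13 on 2, and Cse1l, Kpna4 and Tnpo2 on 1. Of elongation and termination factors 6 of 12 were listed, among them Eef1g and Etf1 on 2 lines, while Eef2 and Eef2k were absent. Of the genes that set the phosphorylation of eIF2, Ppp1r15a, the stress-induced phosphatase subunit, had 3 lines, Eif2ak2 and Ppp1cb had 1, and the kinases Eif2ak1, Eif2ak3 and Eif2ak4 were absent. All of these shares were counted beside the 25.2% of protein-coding genes, and none was tested.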
